A study of Mus musculus with 11 samples.

Results

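Genes that set the carotid body and the adrenal medulla jointly apart from the superior cervical ganglion were described. The carotid body is a small organ at the fork of the carotid artery that senses arterial oxygen. Chromaffin cells of the adrenal medulla release adrenaline into the blood, and the ganglion holds sympathetic neurons. All are catecholamine-producing tissues of neural crest origin. The joint comparison was the mean of both organ means minus the ganglion mean. The genes were those in which every carotid body and every adrenal medulla array lay on the same side of every ganglion array, 6366 of 30142 named genes, with 2536 above and 3830 below the ganglion (8.41% and 12.7%). Because the absence of overlap chose these genes, it is a description and not a result.

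All tissue came from wildtype C57B6 mice of both sexes aged 2 months, untreated as far as the labels say. There were 3 arrays of carotid body, each a pool of 10 mice, 4 of adrenal medulla and 4 of ganglion, each a pool of 3 mice. A replicate was therefore a pool, and the labels do not say how mice were divided among pools, so p-values measure the spread between these pools. Values are deposited log2 expression values, means are given ± SD over n = 3 (carotid body) or n = 4 (either other tissue), and differences are on the log2 scale with a standard error (SE). The values reach 19.93, high for RMA log2 values, and a rescaling that the sources used here do not name cannot be told from them; every fold and the 2-fold limit hold only if the scale is log2. A gene was called where limma's Benjamini-Hochberg adjusted p over all 30142 genes was under 0.05 and the absolute joint difference was at least 1, which is 2-fold; the test covered all genes, whether or not arrays overlapped.

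Glomus cells of the carotid body and chromaffin cells of the adrenal medulla are secretory cells that hold catecholamines in dense core granules and depolarise when potassium channels close. Glomus cells are known for fast responses to low oxygen that depend on mitochondria, and chromaffin cells respond to low oxygen mainly around birth. Sympathetic neurons share the catecholamine enzymes but send long axons. Both endocrine organs are also densely supplied with capillaries. Whole organs were hybridised, so fewer cells of a type and less RNA per cell cannot be told apart in any value below.

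The labelled tissues were checked against marker genes, using the mean log2 value of each list on each array. Neuron genes averaged 12.81 to 13.14 on the ganglion arrays, 9.71 to 11.15 on the carotid body arrays and 8.74 to 9.10 on the adrenal medulla arrays. Carotid body replicate 1 carried the most neuron signal of its tissue (11.15) and replicate 2 the least (9.71). Adrenal cortex genes averaged 14.33 to 14.81 on the adrenal medulla arrays against 5.29 to 5.82 on all others, so cortex transcripts were abundant in samples labelled adrenal medulla. The part that cortex had in adrenal medulla values below, such as those of Kcnk9, Kcnk3 and Adh1, was not tested. Fibroblast genes were highest on the carotid body arrays (12.24 to 12.32, against 8.0 to 8.13 in adrenal medulla and 8.85 to 9.16 in ganglion), and so were adipocyte genes (9.52 to 10.24, against at most 7.23 elsewhere). Pnmt, which makes adrenaline, marked the adrenal medulla at 14.13 ± 0.68 and was near background in the other tissues.

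**Figure D1:**
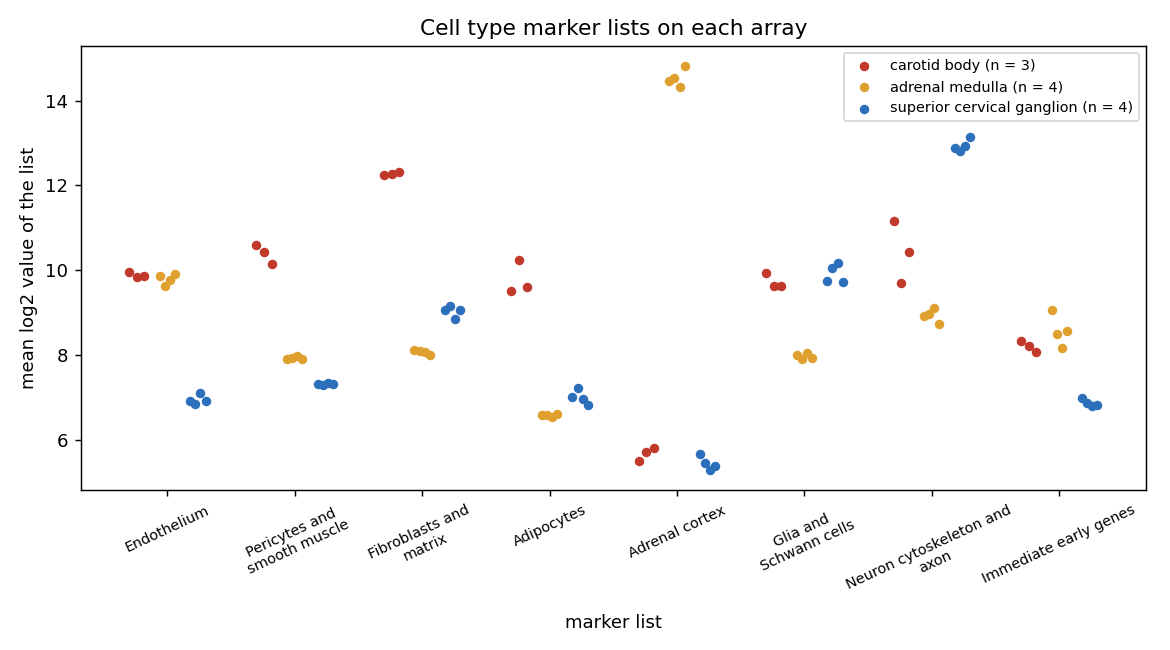
Mean log2 value (vertical axis) of each marker list (horizontal axis) on each array, with 1 point per array and colours for the tissues. Endothelial genes lay between 9.64 and 9.96 on the 7 organ arrays and between 6.84 and 7.11 on the ganglion arrays, while neuron genes were highest in ganglion and adrenal cortex genes stood out in adrenal medulla.

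In the joint comparison 3498 of 30142 genes were called (11.6%), 1397 higher in the organs (4.63%) and 2101 lower (6.97%). With quantile normalization repeated they were 1809 higher and 1750 lower, so the excess of lower calls turned with the scaling. Of these, 3014 (10.0% of all genes) also had no overlap between the 7 organ arrays and the 4 ganglion arrays: 1078 above the ganglion (3.58%) and 1936 below it (6.42%). These 3014 genes are the ones meant below by "above" and "below" the ganglion. Among genes both called and without overlap the share above was 35.8%, and 47.4% with quantile normalization repeated. The other 3352 non-overlapping genes were not called, nearly all because their difference was under 2-fold (1457 of those above and 1894 of those below). Of the 6366 genes, 358 were under the background bound in all tissues (58 above, 300 below). That bound came from 540 vomeronasal receptor and keratin-associated protein genes, taken as silent here, as the 95th percentile of their means in a tissue: 5.41 in carotid body, 5.36 in adrenal medulla and 5.45 in ganglion. At the limit of the non-overlap rule, Adamtsl2 lay just inside with a gap of 0.000730 between the nearest organ and ganglion arrays, and Srsf5 lay just outside, overlapping by 0.005. On the lower side Nrsn2 lay just inside with a gap of 0.00599, and Zcchc12 just outside.

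Protein-coding genes made up 74.3% of the genes above and 80.8% of those below the ganglion, against 63.2% of all genes tested. A difference from ganglion of at least 8-fold in each organ was found for 45 genes above and 258 genes below, and of at least 16-fold for 16 and 36. Both organ differences share the ganglion arrays, so they are given side by side and not as independent evidence. In carotid body 5.61% of all genes were called higher and 8.28% lower than in ganglion, and in adrenal medulla 5.72% and 7.50%. With quantile normalization repeated the larger side turned in both, to 2150 higher and 2048 lower in carotid body (1691 and 2496 before) and 2218 and 1896 in adrenal medulla (1725 and 2262 before).

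The carotid body and adrenal medulla were also compared with each other over these genes, a comparison that needs no ganglion array. Among the 1078 genes above the ganglion, 150 were called with carotid body over adrenal medulla (13.9%) and 223 with adrenal medulla over carotid body (20.7%), against 6.06% and 4.95% of all genes. Among the 1936 genes below it, 433 were called higher in carotid body (22.4%) and 112 higher in adrenal medulla (5.79%), so the carotid body was the organ nearer to the ganglion in 433 and the adrenal medulla in 112. The count of 112 rose to 209 when carotid body replicate 1 was left out and was 72 when replicate 2 was, the arrays with the most and the least neuron signal of that tissue. The count of 433 was 242 with protein-coding genes only, a table in which 1565 of the 1936 genes were tested. With genes that share all values counted once, the count of 433 was 342, of 1844 genes below the ganglion. The count of 112 did not change there.

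**Figure D2:**
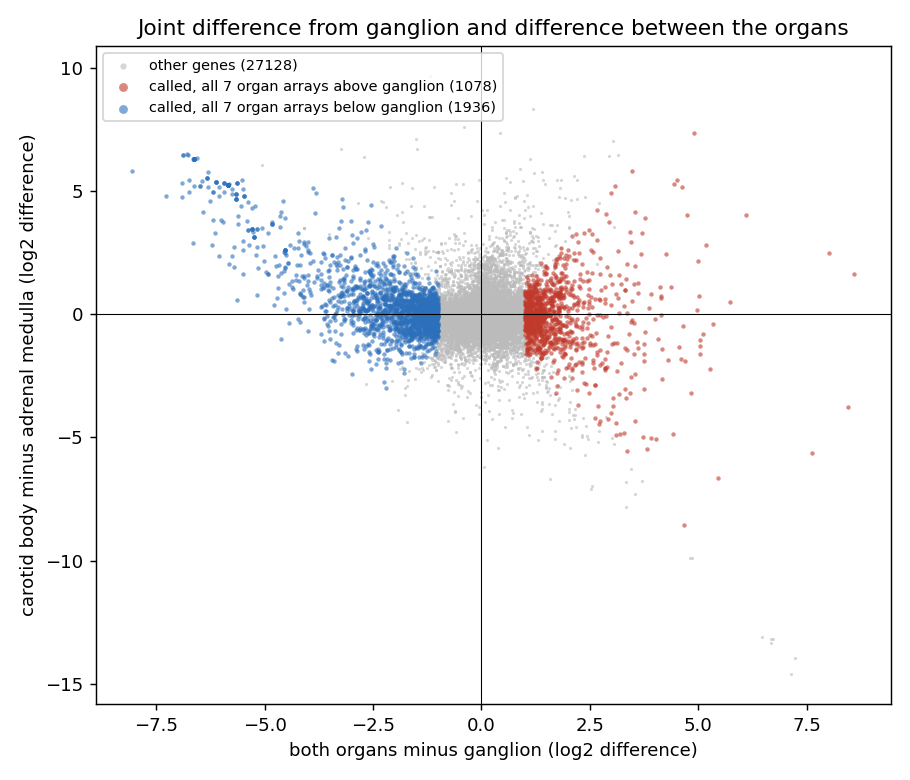
Each point is a gene, placed by the log2 difference of both organs from ganglion (horizontal axis) and the log2 difference between carotid body and adrenal medulla (vertical axis). The 1078 genes above the ganglion are red, the 1936 below it blue and the other 27128 grey; many of the genes farthest below the ganglion lie above zero on the vertical axis, where carotid body exceeds adrenal medulla.

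The genes farthest above the ganglion included a mitochondrial protein, an ion channel, secreted factors and vessel genes. Ndufa4l2, a hypoxia-induced relative of the respiratory chain subunit Ndufa4, read 14.44, 14.91 and 15.29 on the carotid body arrays (replicates 1 to 3), 13.44, 13.08, 13.51 and 12.98 on the adrenal medulla arrays (1 to 4) and 5.37, 5.42, 5.67 and 5.38 on the ganglion arrays (1 to 4). Every organ array was thus far above the ganglion, where 3 of 4 arrays lay at or under the background bound. The joint difference was 8.60 (SE 0.16, limma adjusted p = 1.26e-10), at least 664-fold higher in carotid body and at least 215-fold higher in adrenal medulla than in ganglion. Kcnk9, which encodes the acid-sensitive background potassium channel TASK-3, read 13.19, 12.66 and 12.57 on the carotid body arrays (replicates 1 to 3), 16.47, 16.52, 16.75 and 16.54 on the adrenal medulla arrays (1 to 4) and 6.87, 5.60, 6.46 and 6.01 on the ganglion arrays (1 to 4). The 3 tissues did not overlap, adrenal medulla being highest and ganglion lowest, and the joint difference was 8.45 (SE 0.22, limma adjusted p = 1.35e-09). Whether its adrenal medulla signal came from chromaffin or cortex cells was not tested.

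Gdf10, a growth factor of the TGF-beta superfamily, averaged 15.16 ± 0.52 in carotid body, 12.65 ± 0.28 in adrenal medulla and 5.90 ± 0.60 in ganglion. Adh1, an alcohol dehydrogenase that also oxidises retinol, averaged 11.93 ± 0.22 in carotid body, 17.56 ± 0.25 in adrenal medulla and 7.11 ± 0.19 in ganglion, a joint difference of 7.63 of which adrenal medulla made up the larger part. Mgp, an inhibitor of calcification made by vessel and cartilage cells, went the other way with 17.75 ± 1.29 in carotid body, 13.70 ± 0.42 in adrenal medulla and 9.62 ± 0.19 in ganglion. Dgkk, a diacylglycerol kinase, was at background in ganglion (5.26 ± 0.17) and reached 9.97 ± 0.28 in carotid body and 10.78 ± 0.17 in adrenal medulla. Ccnd2, a D-type cyclin, and Ifitm2, an interferon-induced membrane protein, were above the ganglion by 5.04 and 5.03. Trpc5, a cation channel, read 11.10, 10.28 and 10.15 on the carotid body arrays (replicates 1 to 3), 10.34, 10.31, 10.64 and 10.02 on the adrenal medulla arrays (1 to 4) and 5.92, 5.31, 5.22 and 5.36 on the ganglion arrays (1 to 4). Carotid body and adrenal medulla overlapped for this gene and differed by only 0.18 (limma adjusted p = 0.642), and 3 of 4 ganglion arrays lay at background.

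**Figure D3:**
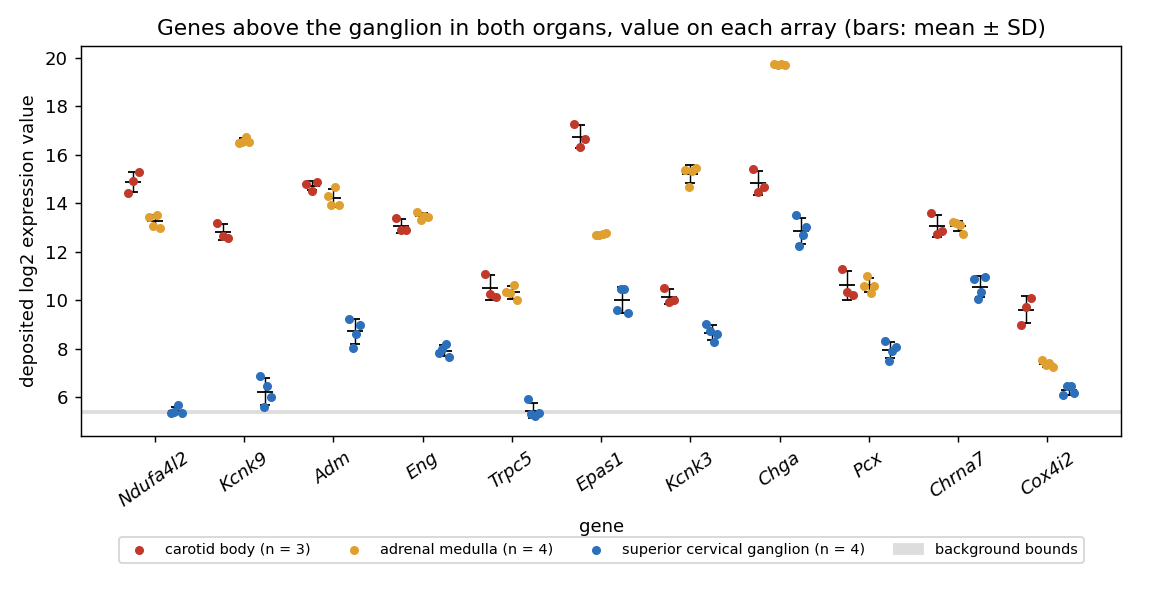
Deposited log2 value (vertical axis) of 11 genes above the ganglion (horizontal axis) on each array, with points for arrays, black bars for the mean ± SD of a tissue and a grey band for the background bounds. Adm, Eng, Trpc5, Pcx and Chrna7 overlap or nearly meet in both organs, Epas1 and Cox4i2 are highest in carotid body, and Kcnk9, Kcnk3 and Chga are highest in adrenal medulla.

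Of 10 measured genes for hypoxia-inducible factors (HIF) and the hydroxylases that mark them for decay, 4 were above the ganglion and 1 below, against 3.58% and 6.42% of all genes. The median joint difference of the list was 0.23, against -0.04 over all genes. Epas1, which encodes HIF-2alpha, read 17.26, 16.33 and 16.63 on the carotid body arrays (replicates 1 to 3), 12.70, 12.70, 12.75 and 12.79 on the adrenal medulla arrays (1 to 4) and 9.60, 10.48, 10.47 and 9.47 on the ganglion arrays (1 to 4). All 3 tissues stood apart, with carotid body highest and ganglion lowest, at a joint difference of 4.73 (SE 0.23, limma adjusted p = 6.91e-08). The carotid body exceeded the ganglion by 6.74 and the adrenal medulla exceeded it by 2.73. Arnt2, a partner subunit, had the opposite order, with 10.56 ± 0.40 in carotid body, 12.73 ± 0.23 in adrenal medulla and 8.78 ± 0.26 in ganglion. Arnt, the common partner subunit, was above by 1.21 (SE 0.10). Hif1a, which encodes HIF-1alpha, was above by 1.01 (SE 0.13), just past the 2-fold limit, and lost the call without carotid body replicate 3, adrenal medulla replicate 1 or ganglion replicate 2 or 3 (lowest value 0.92). Under limma's test against a 2-fold difference, 2 members of the list were above the ganglion in place of 4.

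Egln3, a prolyl hydroxylase that is itself induced by hypoxia, was the member below the ganglion, at 7.46, 7.25 and 7.46 on the carotid body arrays (replicates 1 to 3), 7.16, 7.21, 7.54 and 7.37 on the adrenal medulla arrays (1 to 4) and 9.76, 9.25, 8.86 and 10.03 on the ganglion arrays (1 to 4). Neither organ overlapped the ganglion, and they differed from each other by 0.07. The joint difference was -2.12 (SE 0.19, limma adjusted p = 6.9e-06). Among 21 hypoxia-induced genes 2 were above and 2 below the ganglion, against 3.58% and 6.42% of all genes, with a median of -0.08. Adm, the vasodilator peptide adrenomedullin, read 14.78, 14.52 and 14.86 on the carotid body arrays (replicates 1 to 3), 14.30, 13.91, 14.69 and 13.91 on the adrenal medulla arrays (1 to 4) and 9.23, 8.05, 8.60 and 9.0 on the ganglion arrays (1 to 4), a joint difference of 5.74 (SE 0.23) with no call between the organs (limma adjusted p = 0.197). Vegfa, the vessel growth factor, was above by 2.20 (10.42 ± 0.48 in carotid body, 10.62 ± 0.52 in adrenal medulla and 8.32 ± 0.36 in ganglion). Slc2a3, the neuronal glucose transporter, was below with a joint difference of -3.64, and Higd1a, a mitochondrial protein, with one of -1.71.

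To show what lies upstream of genes of this kind that moved, the 250 bases before the transcription start of 4 of them are given 5′ to 3′ from RefSeq promoters on GRCm38.p6: Pcx and Cox8b, described below, with Adm above the ganglion, and Egln3 below it. Capitals mark ACGTG, 1 form of the core of the hypoxia response element, on either strand (CACGT when read on the other). The form GCGTG was not searched or marked, so windows without ACGTG may still hold a core.
Pcx, chr19:4510222-4510471, + strand: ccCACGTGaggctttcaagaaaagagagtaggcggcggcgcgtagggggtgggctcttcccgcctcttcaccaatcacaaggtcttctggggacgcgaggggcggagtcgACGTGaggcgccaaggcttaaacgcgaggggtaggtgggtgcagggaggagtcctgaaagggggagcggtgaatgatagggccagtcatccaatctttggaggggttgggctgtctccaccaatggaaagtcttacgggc
Cox8b, chr7:140900447-140900696, - strand: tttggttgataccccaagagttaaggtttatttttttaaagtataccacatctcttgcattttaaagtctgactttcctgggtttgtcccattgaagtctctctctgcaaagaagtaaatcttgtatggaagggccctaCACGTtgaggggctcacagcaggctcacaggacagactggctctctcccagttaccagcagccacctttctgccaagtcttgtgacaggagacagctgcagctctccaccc
Adm, chr7:110627407-110627656, + strand: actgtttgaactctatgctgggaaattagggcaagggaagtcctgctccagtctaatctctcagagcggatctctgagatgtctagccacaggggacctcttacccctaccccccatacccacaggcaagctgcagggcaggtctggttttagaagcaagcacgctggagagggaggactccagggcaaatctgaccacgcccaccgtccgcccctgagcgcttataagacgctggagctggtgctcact
Egln3, chr12:54203875-54204124, - strand: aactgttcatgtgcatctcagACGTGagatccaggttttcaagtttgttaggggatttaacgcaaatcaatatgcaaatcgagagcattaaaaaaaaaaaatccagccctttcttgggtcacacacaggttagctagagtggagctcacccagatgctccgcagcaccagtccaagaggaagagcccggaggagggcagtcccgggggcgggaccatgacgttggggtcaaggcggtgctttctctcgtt
ACGTG was found in 3 places in this first of 2 Pcx windows, where a CACGTG counts on each strand, in 1 place in Cox8b and Egln3 and in none in Adm. The second Pcx window, chr19:4594069-4594318, held 0 matches. Over promoters of the genes above the ganglion, 18.5% of 750 windows held ACGTG (600 of 1078 genes matched), and over those of the genes below, 18.8% of 1625 (1235 of 1936 genes matched). Over the genes tested that had a window, 17087 of 30142, it was in 18.2% of 20705 windows. The cAMP response element TGACGTCA, which reads the same on both strands, was in 2.27%, 2.65% and 1.90% of these windows. A match is only a match of letters, and Ndufa4l2, Epas1, Cox4i2 and Kcnk9 had no window in the table used.

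Of 13 measured mitochondrial subunit genes with tissue-restricted forms, or related to one, 3 were above and 3 below the ganglion (1 below with quantile normalization repeated and none under the test against 2-fold). Ndufa4, the ubiquitous relative of Ndufa4l2, was below at 12.68 ± 0.56 in carotid body, 11.58 ± 0.21 in adrenal medulla and 13.71 ± 0.51 in ganglion, a joint difference of -1.58 whose nearest arrays were only 0.0122 apart. Cox4i2, the lung and oxygen-regulated form of cytochrome oxidase subunit 4, read 9.0, 9.72 and 10.10 on the carotid body arrays (replicates 1 to 3), 7.56, 7.34, 7.41 and 7.25 on the adrenal medulla arrays (1 to 4) and 6.10, 6.47, 6.47 and 6.19 on the ganglion arrays (1 to 4). Carotid body was highest and ganglion lowest without overlap, with a joint difference of 2.19 (SE 0.18, limma adjusted p = 2.82e-06). Cox8b, the heart and muscle form of subunit 8, averaged 8.17 ± 0.72 in carotid body, 7.71 ± 0.26 in adrenal medulla and 5.08 ± 0.34 in ganglion, with the ganglion under the background bound. Cox6b1, the common form of another subunit, was also below with a joint difference of -1.39. Among common subunits, of 33 complex I genes none was above and 3 were below, with a median of -0.31, and none was below with quantile normalization repeated. Of 28 genes of complexes III to V none was above and 5 were below, with a median of -0.53 (2 below with quantile normalization repeated). The shares over all genes were 3.58% above and 6.42% below. Cox5a (-1.64) and Atp5g1 (-1.43), of complexes IV and V, were among the latter, and 1 gene was left under the test against 2-fold.

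Pyruvate and citric acid cycle genes had 2 members above and 8 below the ganglion of 34 measured, against 3.58% and 6.42% of all genes. Their median was -0.39, and 3 were below with quantile normalization repeated and 2 under the test against 2-fold. Pcx, pyruvate carboxylase, which refills the citric acid cycle from pyruvate, read 11.29, 10.33 and 10.22 on the carotid body arrays (replicates 1 to 3), 10.61, 11.02, 10.32 and 10.60 on the adrenal medulla arrays (1 to 4) and 8.33, 7.52, 7.91 and 8.08 on the ganglion arrays (1 to 4). The organs overlapped each other and lay above all ganglion arrays, with a joint difference of 2.66 (SE 0.22, limma adjusted p = 3.87e-06) and a difference between the organs of -0.02 (SE 0.27). Pdha1, the catalytic subunit of pyruvate dehydrogenase, was below with a joint difference of -1.47, the succinate dehydrogenase anchor Sdhd with -1.70 and the aspartate aminotransferase Got2 with -1.85. Of 15 glycolysis genes 9 were below and none above, with a median of -1.44. Aldoc, the aldolase of brain and nerve, read 9.54, 8.07 and 8.76 on the carotid body arrays (replicates 1 to 3), 8.89, 8.99, 8.95 and 8.77 on the adrenal medulla arrays (1 to 4) and 12.19, 12.04, 12.19 and 12.68 on the ganglion arrays (1 to 4), and the organs overlapped each other below the ganglion. It was 11.2-fold lower in carotid body and 10.4-fold lower in adrenal medulla than in ganglion. Eno2, the neuronal enolase, and Hk1, a hexokinase, were below with joint differences of -2.86 and -1.93.

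Tandem-pore and calcium-activated potassium channels had 3 members above and 5 below the ganglion of 23 measured, against 3.58% and 6.42% of all genes. Besides Kcnk9, Kcnk3, which encodes TASK-1, read 10.52, 9.93 and 10.02 on the carotid body arrays (replicates 1 to 3), 15.38, 14.67, 15.34 and 15.45 on the adrenal medulla arrays (1 to 4) and 9.03, 8.72, 8.28 and 8.61 on the ganglion arrays (1 to 4). Its carotid body arrays lay between the others, nearer to ganglion, and the difference from ganglion was 1.50 in carotid body against 6.55 in adrenal medulla. Kcnmb2, an inactivating subunit of the large-conductance channel, was above by 2.12, at 6.96 ± 0.15 in carotid body, 8.06 ± 0.25 in adrenal medulla and 5.38 ± 0.34 in ganglion. Kcnma1, the pore of that channel, was not among these genes because the ganglion (10.14 ± 0.17) lay between adrenal medulla (11.96 ± 0.06) and carotid body (9.21 ± 0.31). Kcnk18, the TRESK channel, and Kcnn3, a small-conductance channel, were below with joint differences of -3.13 and -2.27.

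Voltage-gated and inward-rectifier potassium channels had 12 of 31 members below and 2 above, against 6.42% and 3.58% of all genes. The count above was 1 without carotid body replicate 1, adrenal medulla replicate 3 or ganglion replicate 3. Kcnq3, a subunit of the M-current that restrains firing of sympathetic neurons, was below with a joint difference of -4.18 (9.44 ± 1.17 in carotid body, 9.77 ± 0.51 in adrenal medulla and 13.78 ± 0.25 in ganglion), Kcnd2, an A-type channel, with -3.96, and Kcnj3, a G-protein-gated channel, with -4.42. Abcc9, the sulfonylurea receptor of vessel-type ATP-sensitive channels, was above by 4.38 (12.46 ± 0.39 in carotid body, 11.38 ± 0.05 in adrenal medulla and 7.54 ± 0.05 in ganglion). Of 25 voltage-gated sodium and calcium channel genes 5 were above and 11 below. Cacna1h, a T-type calcium channel, and Cacna1c, an L-type channel, were above by 1.97 and 1.77, both called higher in adrenal medulla than in carotid body. The sodium channels Scn9a and Scn1a were below with joint differences of -4.68 and -3.52. Asic2, an acid-sensing channel, was below with a joint difference of -3.64, and the organs overlapped each other (7.74 ± 0.80 and 7.95 ± 0.27).

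Of 28 neurotransmitter receptor genes 2 were above and 12 below the ganglion, against 3.58% and 6.42% of all genes. Chrna7, the alpha7 nicotinic subunit, read 13.59, 12.73 and 12.87 on the carotid body arrays (replicates 1 to 3), 13.21, 13.17, 13.09 and 12.75 on the adrenal medulla arrays (1 to 4) and 10.89, 10.06, 10.35 and 10.97 on the ganglion arrays (1 to 4). Both organs lay above all ganglion arrays and differed from each other by 0.01 (SE 0.26), with a joint difference of 2.49 (SE 0.21, limma adjusted p = 3.95e-06). Gabra3, a GABA-A receptor subunit, was above by 3.29 (9.66 ± 0.18 in carotid body, 9.32 ± 0.20 in adrenal medulla and 6.20 ± 0.36 in ganglion). On the other side Htr3a, a subunit of the serotonin-gated channel, read 14.82, 11.43 and 13.22 on the carotid body arrays (replicates 1 to 3), 7.38, 7.45, 7.38 and 7.13 on the adrenal medulla arrays (1 to 4) and 18.34, 18.27, 18.13 and 18.47 on the ganglion arrays (1 to 4). The carotid body arrays were spread over more than 3 log2 units, with replicate 1 nearest to ganglion, and the adrenal medulla arrays were tightly grouped far below. Its joint difference was -8.06 (SE 0.47, limma adjusted p = 2.41e-07), the one farthest below zero among the 1936 genes. Htr3b, the second subunit, had a joint difference of -7.27, and Chrm2, the M2 muscarinic receptor, of -5.18.

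G-protein signalling regulators had 3 of 23 members above and 6 below, against 3.58% and 6.42% of all genes. Rgs5, abundant in pericytes and glomus cells, averaged 19.04 ± 0.20 in carotid body, 13.57 ± 0.09 in adrenal medulla and 11.79 ± 0.39 in ganglion, and Rgs2 had the opposite order of organs, 8.04 ± 0.19 in carotid body, 10.89 ± 0.37 in adrenal medulla and 7.05 ± 0.27 in ganglion. Rgs4 was not among these genes: its carotid body arrays overlapped the ganglion (14.20 ± 0.21 and 14.66 ± 0.38), with adrenal medulla lower (11.31 ± 0.32). Gnal, a stimulatory G-protein subunit, was below with a joint difference of -4.20, and Rgs7, a neuronal regulator, with -2.40. Among 25 cyclic nucleotide genes 6 were above and 7 below (4 and 4 under the test against 2-fold). Pde5a, the cyclic GMP phosphodiesterase, and Adcy5, an adenylyl cyclase, were above by 4.11 and 2.07, while Pde2a and Adcy8 were below with joint differences of -2.10 and -2.11. Of the AMP-activated kinase catalytic subunits, Prkaa2 was below with a joint difference of -2.59 and Prkaa1 had a joint difference of -0.99, just short of 2-fold, which passed once carotid body replicate 1 or ganglion replicate 2 or 3 was left out. Hmox2, the constitutive haem oxygenase, had a joint difference of -0.60 and Cth, which makes hydrogen sulfide, one of 0.55, and neither was called.

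Catecholamine genes were mostly at or below the ganglion level, with 1 of 16 above and 7 below (median -1.24), against 3.58% and 6.42% of all genes. Th, tyrosine hydroxylase, which starts catecholamine synthesis, and Dbh, which makes noradrenaline, overlapped the ganglion and were not called (joint differences -0.59 and -1.06). Both lay near the top of the range in adrenal medulla and ganglion, where differences are compressed. Dbh was called without carotid body replicate 1, at -1.42, and also with array weights or without dim genes. Slc18a2, the vesicular monoamine transporter of neurons, read 13.97, 12.50 and 13.43 on the carotid body arrays (replicates 1 to 3), 13.45, 13.70, 13.79 and 13.31 on the adrenal medulla arrays (1 to 4) and 16.78, 16.19, 16.42 and 16.99 on the ganglion arrays (1 to 4). The organs overlapped and both lay below the ganglion, at a joint difference of -3.16 (SE 0.25, limma adjusted p = 2.48e-06). Maoa, which breaks down amines, was below with a joint difference of -4.72 (12.34 ± 1.32 in carotid body, 11.69 ± 0.22 in adrenal medulla and 16.74 ± 0.35 in ganglion). Slc6a2, the noradrenaline transporter, was below with a joint difference of -5.26, with carotid body above adrenal medulla by 3.36. The member above was Pnmt: its carotid body mean (5.57 ± 0.11) lay only 0.39 above the ganglion mean (limma adjusted p = 0.344), so its joint difference of 4.67 rested on the adrenal medulla.

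Granule genes had 3 of 15 members above the ganglion and 1 below, against 3.58% and 6.42% of all genes (2 below without adrenal medulla replicate 3 or ganglion replicate 2). Chga, chromogranin A, read 15.41, 14.45 and 14.67 on the carotid body arrays (replicates 1 to 3), 19.75, 19.70, 19.74 and 19.70 on the adrenal medulla arrays (1 to 4) and 13.50, 12.24, 12.71 and 13.02 on the ganglion arrays (1 to 4). Adrenal medulla lay near the top of the arrays' range, so that its difference is a lower bound, and carotid body lay between it and ganglion, at 1.98 above ganglion in carotid body and 6.86 above it in adrenal medulla. Chgb and Scg2, chromogranin B and secretogranin II, had the same order, with 16.18 ± 0.23 in carotid body, 19.58 ± 0.03 in adrenal medulla and 14.54 ± 0.39 in ganglion for Chgb and 14.20 ± 0.13 in carotid body, 18.63 ± 0.11 in adrenal medulla and 13.31 ± 0.47 in ganglion for Scg2. Cadps, which primes granules for release, was the member below, with a joint difference of -3.52. Synaptic vesicle and exocytosis genes were below in 18 of 25 cases and above in none (median -1.61). Napb, a neuronal fusion protein, had a joint difference of -6.65, Sv2c, a vesicle protein, of -6.44, Syt4, a synaptotagmin, of -3.48 and Syn1, synapsin I, of -2.96. Carotid body minus adrenal medulla was -0.26 for Syt4 and 0.02 for Syn1, neither called, whereas for Sv2c carotid body exceeded adrenal medulla by 5.43.

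**Figure D4:**
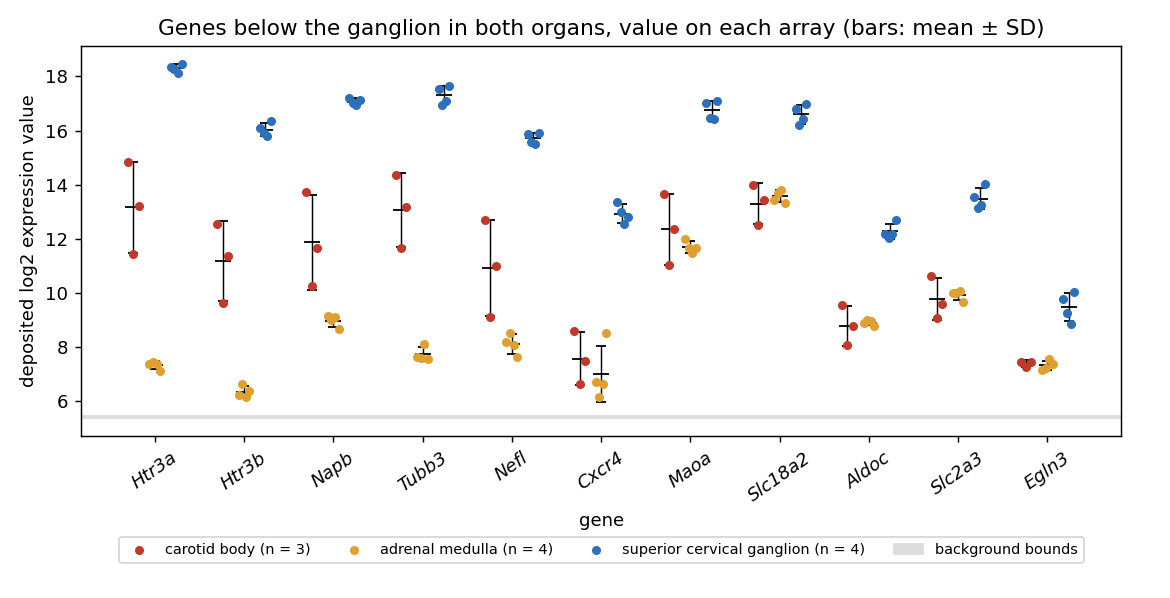
Deposited log2 value (vertical axis) of 11 genes below the ganglion (horizontal axis) on each array, with points for arrays, black bars for the mean ± SD of a tissue and a grey band for the background bounds. The carotid body points of Htr3a, Htr3b, Napb, Tubb3 and Nefl are spread between adrenal medulla and ganglion, whereas Slc18a2, Aldoc, Slc2a3 and Egln3 lie close together in both organs.

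Neuron cytoskeleton and axon genes were the list with the highest share below the ganglion, 24 of 28 with none above (median -2.77). Nefl, the light neurofilament, read 12.68, 9.12 and 10.99 on the carotid body arrays (replicates 1 to 3), 8.18, 8.52, 8.06 and 7.64 on the adrenal medulla arrays (1 to 4) and 15.87, 15.57, 15.52 and 15.91 on the ganglion arrays (1 to 4). Carotid body replicate 1 was highest and replicate 2 lowest of their tissue, and all organ arrays were below ganglion, at -6.21 (SE 0.51, limma adjusted p = 3.14e-06). Tubb3, neuronal beta-tubulin, Prph, the peripheral neuron filament peripherin, and Tubb4a, another beta-tubulin, had joint differences of -6.91, -6.74 and -5.49. The neurotrophic receptors Ret and Ngfr were below with joint differences of -6.42 and -6.0, with carotid body above adrenal medulla by 4.17 and 3.81. Isl1, a transcription factor of sympathetic neurons and chromaffin precursors, was below with a joint difference of -2.27. Of 16 sympathoadrenal factors 2 were above and 1 was below, against 3.58% and 6.42% of all genes. The count above was 1 with array weights, and the count below was 2 without ganglion replicate 2 or 3. Of 15 glial genes 5 were below (3 with quantile normalization repeated) and none above, against 6.42% and 3.58% of all genes. Their median difference from ganglion was 0.03 in carotid body and -1.60 in adrenal medulla. The glial list mean overlapped between carotid body (9.63 to 9.93) and ganglion (9.72 to 10.18), and was 7.91 to 8.05 in adrenal medulla.

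The genes farthest below the ganglion in each organ were not all structural. Cxcr4, a chemokine receptor, read 8.60, 6.63 and 7.48 on the carotid body arrays (replicates 1 to 3), 6.71, 6.14, 6.65 and 8.51 on the adrenal medulla arrays (1 to 4) and 13.37, 12.99, 12.56 and 12.79 on the ganglion arrays (1 to 4). Adrenal medulla replicate 4 stood above the other arrays of its tissue, and both organs lay far below ganglion, at -5.64 (SE 0.46, limma adjusted p = 2.95e-06). Mapk11, the kinase p38beta, was below with a joint difference of -5.18 (8.59 ± 1.28 in carotid body, 7.81 ± 0.19 in adrenal medulla and 13.38 ± 0.16 in ganglion). The list went on with Sult4a1, a neuronal sulfotransferase (-5.83), Nrip3 (-6.06), Vwc2l, a secreted protein with von Willebrand C domains (-5.71), and the tetraspanin Tspan8 (-6.91). The last 3 were under the background bound in adrenal medulla and above it in carotid body.

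Among genes at least 4-fold from ganglion in each organ, some stood at nearly the same level in carotid body and adrenal medulla. These were picked for their small difference between the organs, which is therefore a description. On the upper side they were Chrna7, Pcx, Adgrf5, an adhesion receptor of endothelium (12.94 ± 0.22 in carotid body, 12.96 ± 0.24 in adrenal medulla and 8.82 ± 0.30 in ganglion), Msrb3, a methionine sulfoxide reductase (joint difference 3.18), and Mmrn2, an endothelial matrix protein (9.14 ± 0.35 in carotid body, 9.19 ± 0.19 in adrenal medulla and 6.43 ± 0.29 in ganglion). On the lower side they were Syn1, Pctp, a phosphatidylcholine transfer protein (6.58 ± 0.37 in carotid body, 6.57 ± 0.16 in adrenal medulla and 8.88 ± 0.28 in ganglion), Dynlt3, a dynein light chain (7.69 ± 0.26 in carotid body, 7.69 ± 0.13 in adrenal medulla and 9.74 ± 0.19 in ganglion), Dnajc27 (7.87 ± 0.40 in carotid body, 7.87 ± 0.12 in adrenal medulla and 10.09 ± 0.33 in ganglion) and the kinase gene Map3k9 (6.25 ± 0.43 in carotid body, 6.28 ± 0.19 in adrenal medulla and 8.54 ± 0.22 in ganglion).

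Endothelial genes were the list with the highest share above the ganglion. Of 19 endothelial genes 15 were above and none below, against 3.58% and 6.42% of all genes. Their median joint difference was 2.73, against -0.04 over all genes. Eng, the endothelial receptor endoglin, read 13.38, 12.91 and 12.91 on the carotid body arrays (replicates 1 to 3), 13.65, 13.33, 13.47 and 13.42 on the adrenal medulla arrays (1 to 4) and 7.85, 8.0, 8.20 and 7.65 on the ganglion arrays (1 to 4). The organs overlapped each other far above all ganglion arrays, with a joint difference of 5.34 (SE 0.12, limma adjusted p = 7.03e-10). Emcn, a sialomucin of capillaries and veins, was above by 5.28 and Ptprb, an endothelial phosphatase, by 4.14. Of 15 pericyte and smooth muscle genes 8 were above and 1 below. Of these 9, 7 were called with carotid body over adrenal medulla, against 19.3% of the 3014 genes and 6.06% of all genes. Pdgfrb, the pericyte growth factor receptor, was not called between the organs (11.71 ± 0.37 in carotid body, 12.07 ± 0.17 in adrenal medulla and 8.38 ± 0.34 in ganglion), while Tagln, a smooth muscle protein, averaged 12.91 ± 0.45 in carotid body, 9.02 ± 0.02 in adrenal medulla and 7.19 ± 0.61 in ganglion. Fibroblast and adipocyte genes had 2 of 13 and 3 of 11 members above the ganglion, and macrophage, lymphocyte and proliferation genes had none called without overlap. Macrophage genes had 2 above without carotid body replicate 1, 1 without ganglion replicate 3 and 1 with quantile normalization repeated. Several genes described above, such as Epas1, Ndufa4l2, Rgs5, Abcc9 and Adm, are also known from vessel cells, and the endothelial list mean was 9.64 to 9.96 on the organ arrays against 6.84 to 7.11 on the ganglion arrays. The part that vessel content had in their differences was not tested.

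Immediate early genes, which rise within minutes of handling or stimulation, were above the ganglion in 8 of 11 cases, with a median of 1.62 (3 under the test against 2-fold). Their list mean was 8.08 to 8.33 in carotid body, 8.18 to 9.07 in adrenal medulla and 6.81 to 7.0 in ganglion. Egr1, a transcription factor of this class, read 10.28, 10.10 and 10.05 on the carotid body arrays (replicates 1 to 3), 12.02, 11.32, 10.42 and 11.43 on the adrenal medulla arrays (1 to 4) and 8.28, 7.64, 7.30 and 7.46 on the ganglion arrays (1 to 4), and Fos was above by 2.43 (SE 0.53). Dissection times are not given in the sources used here, and their part in these differences was not tested. Adrenal cortex genes had 1 of 11 members above the ganglion by the rule, since carotid body and ganglion were both near background for most of them (median difference 0.23 in carotid body and 7.10 in adrenal medulla). That count was 3 without carotid body replicate 1 or ganglion replicate 1, and 2 without ganglion replicate 3 or with quantile normalization repeated. Of the other lists, cation channels of the TRP, acid-sensing and HCN families had 1 of 15 members above and 6 below, and carbonic anhydrases and acid-base transporters 1 of 22 above and 5 below, against 3.58% and 6.42% of all genes. The first had 2 above without ganglion replicate 1 and the second 2 above without carotid body replicate 1. Neurotrophin and GDNF receptors had 2 of 13 above and 3 below, and gasotransmitter and AMP kinase genes 1 of 14 above and 2 below (2 above without carotid body replicate 1 or ganglion replicate 2 or 3). Of 20 neuropeptide genes 1 was above (none without ganglion replicate 3), and of 9 mast cell genes 1 was below. Another 4 mast cell genes were called higher in the joint comparison, all with overlap. The mast cell list mean was 7.08 to 7.73 in carotid body, 4.72 to 4.86 in adrenal medulla and 5.22 to 5.42 in ganglion. Of 24 Hox genes none was called without overlap, but 2 were above without carotid body replicate 1, 1 was above without ganglion replicate 1 or 4, with median centring or with quantile normalization repeated, and 1 was below without ganglion replicate 3.

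**Figure D5:**
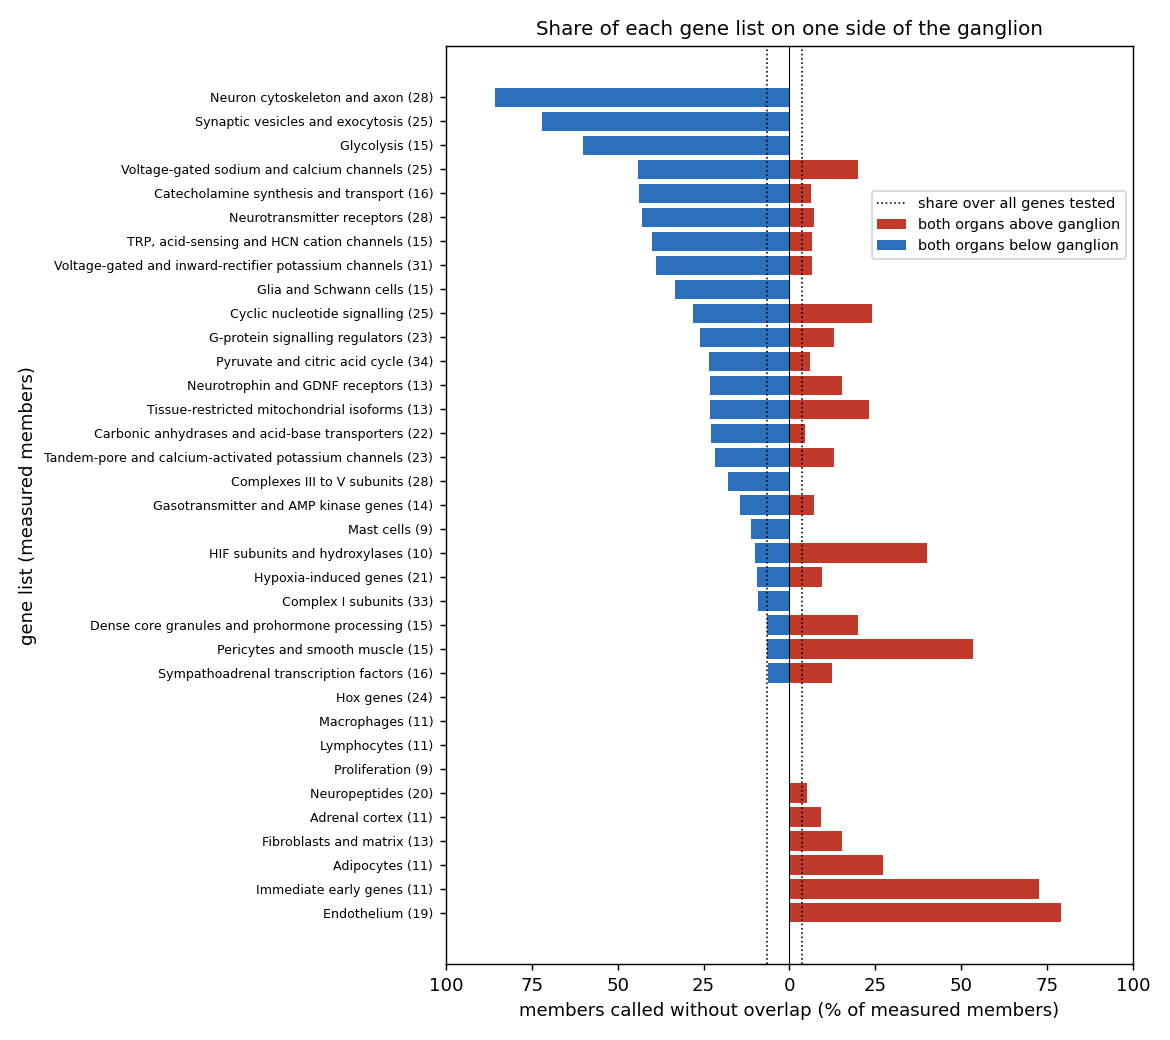
Share of the measured members of each gene list (vertical axis, with the number measured) that was called without overlap above (red, to the right) or below (blue, to the left) the ganglion, in percent (horizontal axis). Dotted lines mark the shares over all genes, 3.58% and 6.42%; endothelial and immediate early genes reach farthest right, and neuron, synaptic vesicle and glycolysis genes farthest left.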

How the data were processed

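RNA of pooled organs was hybridised to mouse transcriptome arrays, 1 pool per array. The authors deposited log2 expression values that, per the submitters' processing notes, came from Affymetrix Expression Console with RMA; the log base was not given in the sources used here and was taken as 2, although the highest values (19.93) are above the usual range of RMA log2 values. RMA equalises the arrays' distributions of probe signals, so differences are relative to the bulk of genes. The tested genes were not fully equalised, with medians from 5.632 (adrenal medulla replicate 2) to 5.842 (carotid body replicate 2). Of 65956 transcript clusters, 30604 carried 1 gene symbol in the platform annotation, 2146 several and 33206 none; clusters with several or none were not used. The cluster with the highest mean stood for each of 30142 genes, of which 452 share all values with another gene. All 11 arrays were fitted together with limma 3.58.1 in R 4.3.3 (lmFit, contrasts and eBayes), tested on simulated data, with Benjamini-Hochberg adjustment over all genes. Fold changes marked "at least" set dim arrays to the background bound or have a bright mean within 0.5 of the top of the range. Members and gene lists were chosen with earlier results of these data known. Named genes were those with the largest differences in each direction overall and within each list, those most even between the organs, those at the limit of the rule, and genes of known interest for oxygen sensing. Predicted genes and genes sharing all values were left out. Alternatives covered scaling, array weights, a control-feature covariate, dim genes, choice of cluster, features tested, a replicate block, contrast weights, the variance prior, the call rule and leaving out each array.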

Additional observations from a re-analysis of the deposited data

Results flagged for a closer look

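Each array of the adrenal medulla and of the ganglion was compared with the other 3 of its tissue, gene by gene, over the genes named in the text. In 5 of 216 gene and tissue groups the highest or lowest array stood apart by Dixon's criterion, fewer than the 1 in 20 that chance gives. Zcchc12 read 5.02 on adrenal medulla replicate 4, Cox6b1 read 13.82 on replicate 1, and Kcnk3 read 14.67 on replicate 2. Tubb3 read 8.11 on adrenal medulla replicate 3. Dbh read 19.84 on replicate 4, where all 4 arrays of the tissue round to the same value at the top of the range.

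For 47 of 108 named genes both organs lay on one side of the ganglion without overlap, and their differences from it were unequal. This was shown by the test of carotid body minus adrenal medulla, which needs no ganglion array (limma, adjusted p under 0.05 and at least 2-fold). The named genes were picked partly for their large differences, so the count of 47 depends on that choice and is no estimate for all genes. The shares of genes called between the organs, over all genes and over those above and below the ganglion, are given in Results. Th (-1.87), Dbh (-2.16), Kcnma1 (-2.75), Cth (-1.70) and Rgs4 (2.90) also passed that test, but they overlapped the ganglion and are not among the 47. Positive values mean that carotid body was higher. In the oxygen and mitochondrial genes these were 4.01 for Epas1, 2.22 for Cox4i2, 1.63 for Ndufa4l2 and 1.10 for Ndufa4. Arnt2 (-2.17) and Got2 (-1.21) were higher in adrenal medulla.

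Among channels, Kcnj3 (2.80), Scn9a (1.56) and Abcc9 (1.09) were higher in carotid body. The TASK genes Kcnk3 (-5.05) and Kcnk9 (-3.76), the calcium channels Cacna1c (-1.36) and Cacna1h (-1.11) and the subunit Kcnmb2 (-1.10) were higher in adrenal medulla. Receptor and signalling genes higher in carotid body were Htr3a (5.82), Rgs5 (5.47), Htr3b (4.82), Gnal (2.99), Chrm2 (2.73) and Pde5a (1.11). Rgs2 (-2.85) was higher in adrenal medulla.

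Granule genes were higher in adrenal medulla, with Chga at -4.88, Scg2 at -4.43 and Chgb at -3.40, and Pnmt differed most, at -8.56. Neuronal genes were higher in carotid body: Sv2c (5.43), Tubb3 (5.33), Prph (4.96), Ret (4.17), Ngfr (3.81), Slc6a2 (3.36), Napb (2.90) and Nefl (2.83). So were Tspan8 (4.78), Nrip3 (2.35), Sult4a1 (2.05) and Vwc2l (1.92), which the organs also carried below the ganglion.

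Of the remaining genes, Mgp (4.05), Tagln (3.89) and Gdf10 (2.50) were higher in carotid body. Adh1 (-5.63), Emcn (-2.23), Adamtsl2 (-1.67), Ifitm2 (-1.29), Egr1 (-1.15), Ccnd2 (-1.06) and Nrsn2 (-1.01) were higher in adrenal medulla.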

How the results depend on the processing

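No joint difference of a named gene changed sign under any alternative, and none of the 3014 genes was called on the other side of the ganglion. Quantile normalization repeated over the tested genes left 2653 of them called without overlap, and median centring left 2963. The test against a 2-fold difference (limma treat) kept 1682 and lowered most counts: 584 genes were higher and 1211 lower in the joint comparison, and 501 and 1181 of these had no overlap. It called 636 genes higher and 1164 lower in carotid body against ganglion, and 767 and 1314 in adrenal medulla against ganglion. Among the genes it left above the ganglion, carotid body was higher than adrenal medulla in 68 and lower in 92, and among those below in 265 and 8. With protein-coding genes only, 19046 genes were tested, and 1020 were called higher in carotid body than in ganglion, against 1691 of 30142. Of the 1565 genes below the ganglion there, 242 had carotid body over adrenal medulla, against 433 of 1936. With genes that share all values counted once, it was 342 of 1844. Leaving out 1 array at a time moved the count of genes below the ganglion that were higher in adrenal medulla from 72 to 209. The joint counts then ranged from 1279 to 1536 higher and from 2043 to 2226 lower. Same-numbered arrays of different tissues did not deviate together (r from -0.17 to 0.25 over 10 pairs, 1 of them over 0.1), so the numbers were not taken as pairs. With a replicate block, 1055 genes lay above and 1939 below the ganglion, against 1078 and 1936. With 3 or 4 pools a tissue, the number of arrays limits the precision, and values near background or near the top of the range understate differences.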
